A study of Mus musculus with 13 samples.

Results

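The expression of all genes was compared between CA1 isolates of mouse entorhino-hippocampal tissue cultures 3 days after an entorhinal cortex lesion (ECL) and CA1 isolates of non-lesioned control cultures. The comparison covered the 4 libraries labelled ECL and the 5 labelled control, out of 13 libraries in the series. The other libraries, from cultures with a different lesion, did not enter any value given here. Of 55291 gene symbols in the deposited count tables, 11392 reached a mean normalised read count of 150 over the 9 libraries and were tested.

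Both groups were wildtype C57BL/6 cultures, prepared at postnatal day 4 to 5 and matured for at least 18 days in vitro. In the ECL group the perforant path, the bundle of axons from the entorhinal cortex, had been transected with a scalpel, whereas the control group received no lesion. Each library came from the polyadenylated RNA of 1 isolate from 1 culture. An isolate holds every cell type of the excised region, and the culture has neither blood flow nor inputs from outside the slice, which limits it as a model of the intact brain. Titles and tissue labels name CA1, but the protocol kept with the libraries describes cutting out the dentate gyrus. All 11 CA1 pyramidal cell markers found in the files reached the count minimum, and their summed normalised count was 20634 to 28523 in the controls and 16711 to 23415 after ECL. Markers of dentate granule cells were present as well, 7 of 11 above the minimum, with sums of 2998 to 3775 in the controls and 2364 to 3166 after ECL. None of the 11 lymphocyte and neutrophil markers reached the minimum.

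The libraries held 14371152 to 21092612 counts in the controls and 20210165 to 46449937 after ECL, the highest total being that of ECL culture 1. On the first principal component, which carried 55.0% of the variance, the 4 ECL cultures lay between 30.7 and 40.5 and the controls between -61.7 and -6.85, with controls 4 and 5 farthest from the ECL group. Counts on mitochondrially encoded genes made up 6.07% to 7.96% of each control library and 4.10% to 5.38% of each ECL library (exact permutation test, two-sided, p = 0.0159, the smallest that 4 against 5 allows, adjusted p = 0.0476 over 6 library measures). Pseudogenes took 2.30% to 2.69% of the counts in the controls and 2.82% to 3.21% after ECL, with the same exact p and adjusted p. The mitochondrial share includes the abundant ribosomal RNAs mt-Rnr1 and mt-Rnr2, which fell. The median log2 fold change of the 13 mitochondrially encoded genes tested was 0.02. The column headings give 2 male and 3 female controls and 3 male and 1 female ECL cultures, so sex is unevenly spread over the groups. The part of depth and of these shares in the gene-level differences was not tested. With 1 isolate per culture, p-values measure the spread between these cultures.

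CA1 pyramidal neurons receive entorhinal axons on their outermost dendrites, in stratum lacunosum-moleculare, and input from CA3 on the dendrites closer to the soma. Synaptic activity and calcium entry switch on immediate early genes, whose products are transcription factors and signalling regulators that shape later gene expression and synapses. When axons degenerate, microglia take up the debris with the help of complement and lysosomes, and astrocytes become reactive, while neurons deprived of input can scale the strength of the remaining synapses.

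ECL was followed by a broad change of the CA1 transcriptome. With edgeR's quasi-likelihood test and Benjamini-Hochberg adjustment over all genes tested, 3139 of 11392 genes (27.6%) passed the threshold of 0.05 and are referred to as called. Of these, 1722 (15.1%) rose and 1417 (12.4%) fell. The median log2 fold change, ECL over control, was 0.86 among the genes that rose and -0.74 among those that fell, against -0.01 over all genes tested. At least 2-fold changes were called for 1019 genes (8.94%), of which 650 rose and 369 fell, and at least 4-fold changes for 136 genes (1.19%), of which 52 rose and 84 fell. Without adjustment, 4576 genes (40.2%) had a p under 0.05. The normalised counts of the groups did not overlap for 2833 genes (24.9%), and 2451 of these were called. With library factors computed over all symbols, which moved the median of all genes to 0.18, 2460 genes rose and 695 fell, so that 78.0% of the called genes were higher, as against 54.9%. Without controls 4 and 5, 2403 genes were called, 1362 higher and 1041 lower, and with a sex term 2368, 1399 higher and 969 lower. In bulk tissue, fewer cells of a type and less RNA per cell cannot be told apart, which holds for every cell-type gene described here.

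**Figure D1:**
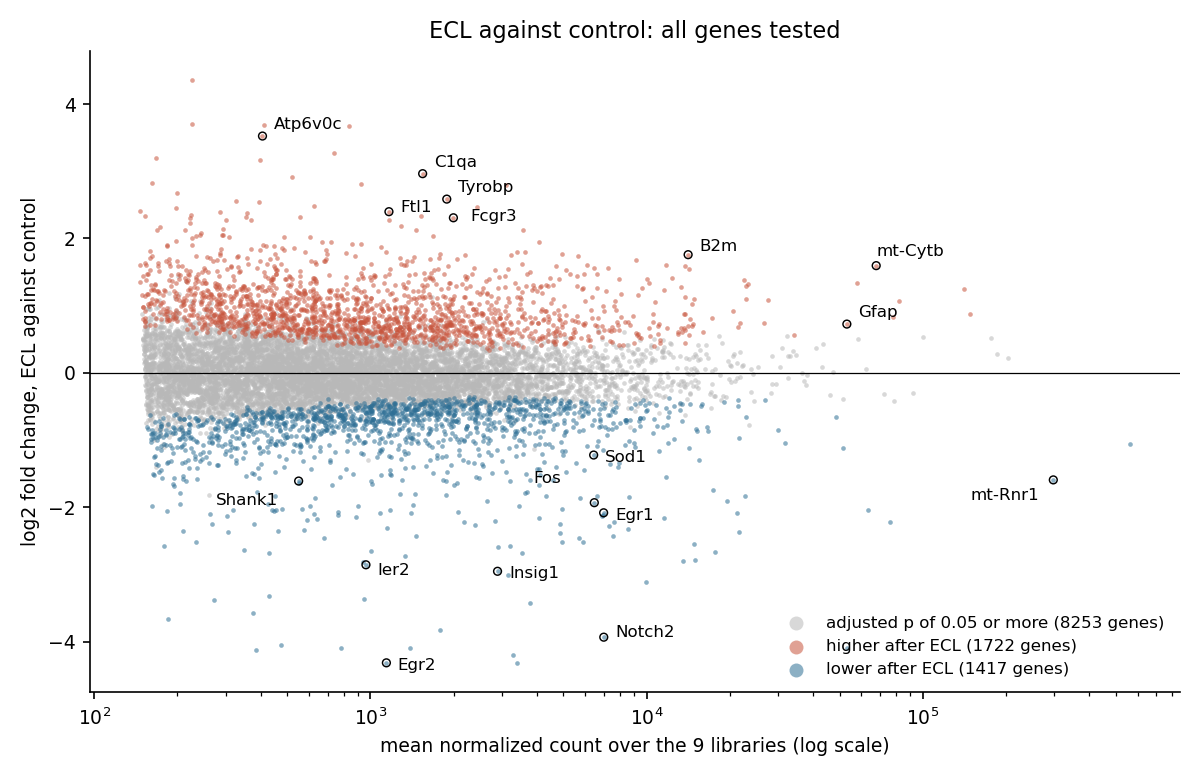
Each point is 1 of the 11392 genes tested, with the mean normalised count over the 9 libraries on the x axis (log scale) and the log2 fold change of ECL over control on the y axis. The 1722 genes called higher (red) and the 1417 called lower (blue) are found at low and at high counts, with C1qa, Tyrobp and Fcgr3 among the largest rises and Egr2, Notch2, Insig1 and Ier2 among the largest falls.

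Immediate early genes had the lowest median of all lists described here. Of 36 listed genes found in the files, 29 were tested, 21 fell and 0 rose, and the median log2 fold change of the list was -1.0. For comparison, 12.4% of all genes tested fell. The summed normalised count of the list was 55004 to 82884 in the controls and 20036 to 32036 after ECL, without overlap. A log2 fold change above 0 was found for 2 of the 29, neither of them called.

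Normalised read counts, scaled between libraries by TMM factors (trimmed mean of M values), are given in the order of controls 1 to 5 and ECL cultures 1 to 4, and gene positions are those of GRCm38. Egr2, a zinc-finger transcription factor of the early growth response family (chr10:67535475-67542188), was counted at 1523, 1018, 2344, 2642 and 2365 in the controls and 152, 70.1, 78.4 and 91.3 after ECL. Every ECL culture lay far below the lowest control. The log2 fold change was -4.32 ± 0.33 (SE, edgeR quasi-likelihood test, Benjamini-Hochberg adjusted p = 1.25e-05), the largest fall of the list. Ier2, an immediate early response regulator (chr8:84661331-84662852), was counted at 1090.0, 1399, 1881, 1732 and 1708 in the controls and 200.1, 163, 228 and 272 after ECL. The groups were far apart here too, with a log2 fold change of -2.86 ± 0.21 (edgeR quasi-likelihood test, Benjamini-Hochberg adjusted p = 1.25e-05).

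Egr1, a widely used marker of recent neuronal activity, had normalised counts of 9203, 7796, 12067, 11584 and 12279 in the controls and 2028, 2390.4, 2862 and 2719.8 after ECL. It fell by a log2 fold change of -2.08 ± 0.18 (edgeR quasi-likelihood test, Benjamini-Hochberg adjusted p = 2.09e-05). Egr3 was counted at 5705, 3203, 6635, 9667 and 6488 in the controls and 1475, 1923, 2632 and 1117 after ECL and also showed no overlap (log2 fold change -1.83 ± 0.29). Fos, a subunit of the AP-1 transcription factor (chr12:85473890-85477273), had counts of 8178, 9119, 8411, 9471 and 12950.5 in the controls and 1869, 2181, 2353 and 3689.8 after ECL. All ECL values were below all control values, and the log2 fold change was -1.93 ± 0.21 (edgeR quasi-likelihood test, Benjamini-Hochberg adjusted p = 8.9e-05).

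Among the regulators of signalling, Dusp1, a phosphatase that switches off MAP kinases, was counted at 1500.2, 1403, 1549, 1603 and 2324 in the controls and 576, 558, 511 and 687 after ECL and had a log2 fold change of -1.52 ± 0.18 (edgeR quasi-likelihood test, Benjamini-Hochberg adjusted p = 0.000117). Arc, which promotes the removal of AMPA receptors from the synapse, was counted at 1719, 1651, 1705, 1167 and 1620.5 in the controls and 405, 489, 796 and 987 after ECL. Its groups did not overlap (log2 fold change -1.23 ± 0.24). Npas4, a transcription factor induced by calcium entry, was spread more widely, with 575, 812, 1182, 428 and 604 in the controls and 42.4, 114, 324 and 236 after ECL. The log2 fold change of Npas4 was -2.02 ± 0.47 (edgeR quasi-likelihood test, Benjamini-Hochberg adjusted p = 0.00649).

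For other activity-regulated factors the groups overlapped. Fosb was counted at 393, 470.1, 726, 260.2 and 815 in the controls and 48.3, 106, 272 and 325 after ECL. Its call (log2 fold change -1.51 ± 0.48, edgeR with Benjamini-Hochberg adjustment, adjusted p = 0.0303) did not hold without ECL culture 1 (adjusted p = 0.0632), ECL culture 2 (0.0914), control 3 (0.0564) or control 5 (0.0767). Nr4a1, an orphan nuclear receptor of the same gene class, had a log2 fold change of -0.50 ± 0.31 and was not called (edgeR quasi-likelihood test, Benjamini-Hochberg adjusted p = 0.236). Its counts of 1738, 2057, 2443, 1268 and 2119.7 in the controls and 571, 1016, 2112 and 1741 after ECL showed ECL cultures 3 and 4 within the control range.

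Promoter sequences are shown because the immediate early genes are known targets of CREB, which binds the cAMP response element, and of serum response factor, which binds the CArG box. The RefSeq table for GRCm38.p6 gave a start for 24 of the 29 genes tested, and the 250 bases before it are printed 5′ to 3′ on the gene's strand, with TGACG (the core of the cAMP response element, searched on both strands, so that a match can read CGTCA) and the CArG box in capitals. A TGACG was found in 70.8% of these 24 windows (17), in 28.3% of the windows of 8557 genes tested and in 17.7% of all 27025 windows. The full element TGACGTCA, which contains TGACG, was in 12.5% of the windows (3), in 2.92% of those of genes tested and in 1.57% of all. A CArG box was in 12.5% (3), 1.12% and 1.40% respectively. A match is a description of the letters and not evidence of a bound factor. The windows are those of Egr2 (chr10:67537619-67537868, plus strand, the middle one of 5 listed starts, with a CArG box at -72 from the start), Fos (chr12:85473640-85473889, plus strand), Dusp1 (chr17:26508473-26508722, minus strand, with TGACGTCA at -143), Npas4 (chr19:4989972-4990221, minus strand) and Fosb (chr7:19310046-19310295, minus strand, with the match at -60).
Egr2: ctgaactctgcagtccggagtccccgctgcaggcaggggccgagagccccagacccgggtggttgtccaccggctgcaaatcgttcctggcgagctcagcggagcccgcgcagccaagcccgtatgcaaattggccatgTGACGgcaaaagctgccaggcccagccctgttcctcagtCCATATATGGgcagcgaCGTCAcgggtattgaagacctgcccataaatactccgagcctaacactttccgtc
Fos: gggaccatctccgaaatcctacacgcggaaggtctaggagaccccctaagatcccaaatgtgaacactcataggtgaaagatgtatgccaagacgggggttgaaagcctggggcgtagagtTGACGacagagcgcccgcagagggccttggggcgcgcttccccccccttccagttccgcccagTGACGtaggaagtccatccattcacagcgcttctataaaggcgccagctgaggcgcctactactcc
Dusp1: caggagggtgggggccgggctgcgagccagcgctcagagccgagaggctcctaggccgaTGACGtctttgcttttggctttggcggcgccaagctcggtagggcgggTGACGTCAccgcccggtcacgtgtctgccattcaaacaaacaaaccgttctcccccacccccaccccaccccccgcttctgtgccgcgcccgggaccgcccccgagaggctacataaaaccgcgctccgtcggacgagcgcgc
Npas4: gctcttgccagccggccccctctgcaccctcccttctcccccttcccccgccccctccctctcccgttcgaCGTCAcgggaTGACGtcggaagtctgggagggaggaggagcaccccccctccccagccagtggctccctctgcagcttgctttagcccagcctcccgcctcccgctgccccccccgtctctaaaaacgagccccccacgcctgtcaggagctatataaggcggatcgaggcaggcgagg
Fosb: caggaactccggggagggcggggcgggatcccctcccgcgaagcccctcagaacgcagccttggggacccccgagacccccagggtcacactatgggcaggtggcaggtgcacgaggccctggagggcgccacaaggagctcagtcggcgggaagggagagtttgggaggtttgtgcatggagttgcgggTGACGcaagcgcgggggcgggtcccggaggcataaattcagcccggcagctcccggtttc

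Among the 16 immediate early genes with a window that fell, 75% (12) held a TGACG, as against 31.3% of the windows of all genes that fell.

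The late effectors of neuronal activity, which act at synapses and dendrites, changed less uniformly. Of 28 tested, 8 fell (28.6%) and 2 rose (7.14%), against 12.4% and 15.1% of all genes tested, with a median of -0.25. Pim1, a serine/threonine kinase, was counted at 209, 149, 170.5, 332 and 353 in the controls and 46.8, 53.1, 70.0 and 78.0 after ECL. It had the largest fall of this list (log2 fold change -1.97 ± 0.32, edgeR quasi-likelihood test, Benjamini-Hochberg adjusted p = 0.000817), without overlap. Rgs2, a regulator of G protein signalling, fell by a log2 fold change of -0.91 ± 0.21 and the polo-like kinase Plk2, which acts in synaptic scaling, by -0.68 ± 0.17, both without overlap.

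Bdnf, the neurotrophin that supports synapse growth, was counted at 5994, 4680.0, 3909, 8659 and 10698 in the controls and 3197, 3622, 5128 and 5254 after ECL. These ranges overlapped, and the log2 fold change of -0.66 ± 0.27 was not called (edgeR quasi-likelihood test, Benjamini-Hochberg adjusted p = 0.0821). Without control 2 or control 3, Bdnf passed the threshold (edgeR with Benjamini-Hochberg adjustment, adjusted p = 0.0498 and 0.0293). Nptx2, a pentraxin that clusters AMPA receptors, pointed the other way with 362, 277, 337, 246 and 666 in the controls and 235, 459, 813 and 688 after ECL, a difference that was not called (log2 fold change 0.54 ± 0.35, edgeR adjusted p = 0.262). The neuropeptide precursor Vgf had a log2 fold change of -0.54 ± 0.30 and was not called (edgeR adjusted p = 0.202).

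**Figure D2:**
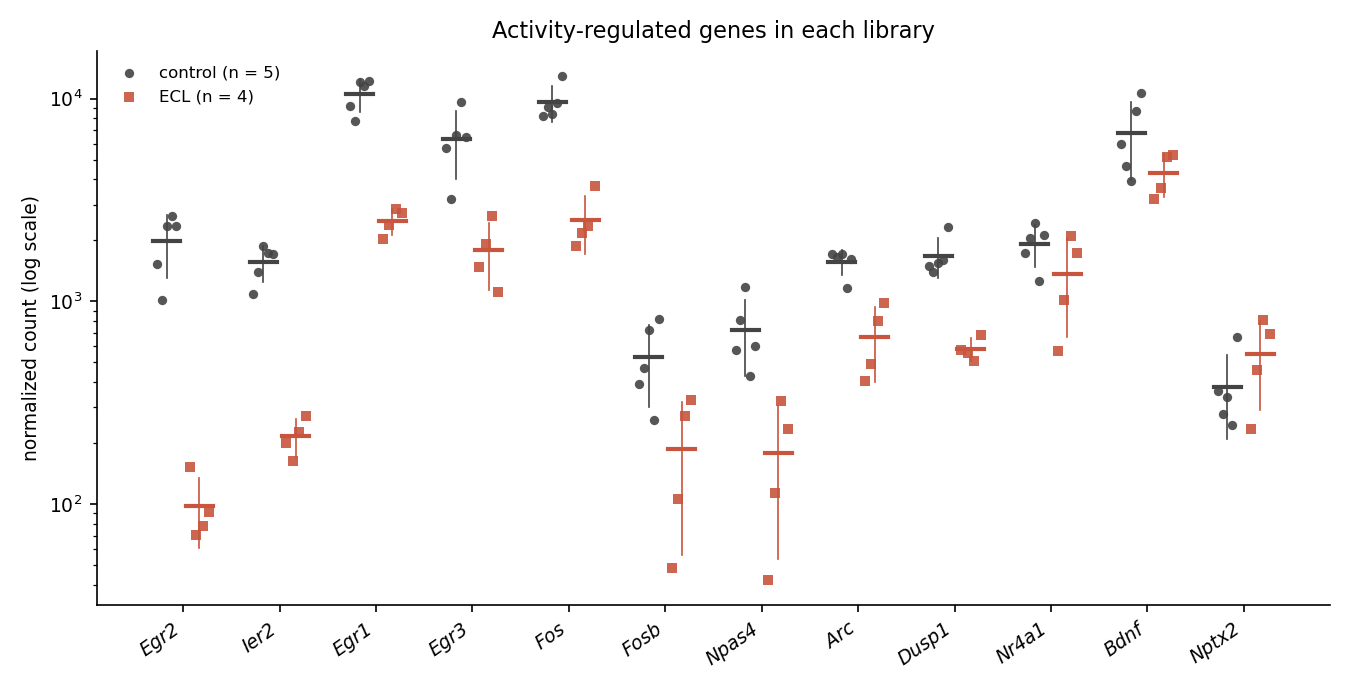
Normalised read counts (y axis, log scale) of 12 activity-regulated genes in each library, with controls as grey circles (n = 5) and ECL cultures as red squares (n = 4), horizontal bars for group means and vertical lines for ± 1 SD. From Egr2 to Fos and for Npas4, Arc and Dusp1 every ECL culture lies below every control, whereas the groups overlap for Fosb, Nr4a1, Bdnf and Nptx2.

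The AMPA receptor family overlapped between groups in sum, with 88044 to 96354 counts over its 28 listed members in the controls and 80244 to 93340 after ECL. Of the 25 members tested 3 rose (12%) and 1 fell (4%), against 15.1% and 12.4% of all genes tested, and the median was -0.01. The pore-forming subunits were not called. Gria1 had a log2 fold change of -0.22 ± 0.14 (edgeR quasi-likelihood test, Benjamini-Hochberg adjusted p = 0.249), Gria2 of -0.30 ± 0.14 (edgeR adjusted p = 0.135) and Gria3 of -0.42 ± 0.15 (edgeR adjusted p = 0.0524). With an offset for exon length and GC content, fitted for each library, Gria2 was at 0.16, that is, on the other side of 0.

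The called members were auxiliary proteins, and their number was not above the share of all genes. Cnih2, a cornichon protein that accompanies AMPA receptors to the surface and slows their deactivation, was counted at 677, 999.7, 1048, 321 and 435 in the controls and 1718, 1554, 3058 and 2143 after ECL. All ECL values exceeded all control values (log2 fold change 1.60 ± 0.31, edgeR quasi-likelihood test, Benjamini-Hochberg adjusted p = 0.00237). Abhd6, a hydrolase that binds AMPA receptors, rose from 1453, 1675, 1578, 1416 and 1399 to 2977, 2459, 2134 and 2404, again without overlap (log2 fold change 0.73 ± 0.14, edgeR quasi-likelihood test, Benjamini-Hochberg adjusted p = 0.00191). The auxiliary subunit Gsg1l had a negative log2 fold change of -0.99 ± 0.28. Its call (edgeR adjusted p = 0.0174) did not hold without ECL culture 1 (adjusted p = 0.0588) or ECL culture 4 (0.063).

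Of the 14 NMDA, kainate and metabotropic glutamate receptors tested, 4 fell (28.6%, against 12.4% of all genes tested) and 0 rose (median -0.43). With library factors computed over all symbols 1 fell (median -0.21). Grm5, the postsynaptic metabotropic receptor that releases calcium from internal stores, was counted at 9486, 8827, 9836, 12014 and 10526 in the controls and 6844, 8066, 6827 and 6528 after ECL. The groups did not overlap (log2 fold change -0.52 ± 0.14, edgeR with Benjamini-Hochberg adjustment, adjusted p = 0.0134), but the call did not hold without ECL culture 4 (adjusted p = 0.0549). Grm3, expressed largely by astrocytes, had a log2 fold change of -0.71 ± 0.19 and the kainate receptor subunit Grik1 of -0.64 ± 0.17, both called and without overlap. The NMDA receptor subunits Grin1 (0.64 ± 0.30, edgeR adjusted p = 0.121) and Grin2a (0.11 ± 0.13, edgeR adjusted p = 0.583) were not called, though both passed the threshold with a positive sign under the length and GC offset.

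Few receptors for GABA and proteins of the inhibitory postsynapse changed. Of 21 tested, 1 rose (4.76%, against 15.1% of all genes tested) and 0 fell. The summed count was 42406 to 47665 in the controls and 41909 to 43780 after ECL. The single called member was Iqsec3, an exchange factor of inhibitory synapses, with 436, 465, 476, 168 and 286 in the controls and 705, 606, 714 and 738 after ECL. Its groups did not overlap (log2 fold change 0.92 ± 0.26, edgeR with Benjamini-Hochberg adjustment, adjusted p = 0.0183), and the call did not hold without ECL culture 4 (adjusted p = 0.0503).

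Scaffolds and kinases of the postsynaptic density were lower after ECL in 14 of 42 cases (33.3%) and higher in 1 (2.38%), with a median of -0.24. Over all genes 12.4% were lower and 15.1% higher. With library factors computed over all symbols 6 were lower and 3 higher (median -0.05). With the length and GC offset 11 were lower and 3 higher (median -0.14). Their summed count lay below the control range, at 124371 to 157607 after ECL and 162728 to 211808 in the controls. Shank1, a master scaffold of excitatory synapses (chr7:44310253-44360572), was counted at 689, 665, 1104, 666 and 794 in the controls and 165, 198, 401 and 265 after ECL. All 4 ECL cultures were below all controls (log2 fold change -1.61 ± 0.26, edgeR quasi-likelihood test, Benjamini-Hochberg adjusted p = 0.00084). Synpo, the protein of the spine apparatus, was counted at 1444, 1579.9, 2152, 2067 and 1912 in the controls and 888, 712, 1245 and 868 after ECL and also fell without overlap (log2 fold change -0.98 ± 0.19, edgeR quasi-likelihood test, Benjamini-Hochberg adjusted p = 0.00195).

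Further falls included a regulator of small GTPases at the synapse. Iqsec1, an exchange factor for Arf6, was counted at 1273, 1569.5, 1731, 2362 and 2199 in the controls and 625, 757, 953 and 879.6 after ECL (log2 fold change -1.19 ± 0.20, edgeR quasi-likelihood test, Benjamini-Hochberg adjusted p = 0.000961). All ECL cultures were below all controls. Dlg4, which encodes PSD-95, had a log2 fold change of -0.71 ± 0.21. Its call (edgeR with Benjamini-Hochberg adjustment, adjusted p = 0.0235) was lost with the length and GC offset (0.0922) and without ECL culture 1 (0.0841), ECL culture 2 (0.074) or control 3 (0.0502). The kinase subunits Camk2a (0.35 ± 0.24, edgeR adjusted p = 0.297) and Camk2b (-0.21 ± 0.22, edgeR adjusted p = 0.512) were not called.

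The release machinery showed changes in both directions, with 12 of 52 members lower (23.1%) and 4 higher (7.69%), against 12.4% and 15.1% of all genes tested. The median of -0.16 became 0.04 when library factors were computed over all symbols. Nrxn3, a presynaptic adhesion molecule (chr12:88722876-90334935), was counted at 6977, 8538, 9516, 8985 and 9129 in the controls and 3426, 4104, 4586 and 4093 after ECL. No ECL culture reached the control range (log2 fold change -1.09 ± 0.14, edgeR quasi-likelihood test, Benjamini-Hochberg adjusted p = 0.000227). The active zone scaffolds Erc1 (log2 fold change -1.04 ± 0.16) and Rimbp2 (-0.97 ± 0.20) fell likewise without overlap. Pclo, the largest of these scaffolds, had a log2 fold change of -0.54 ± 0.14 (edgeR adjusted p = 0.00995), which was -0.17 and no longer called with the length and GC offset (adjusted p = 0.24).

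In the other direction, Napa, the adaptor that recruits the ATPase which takes SNARE complexes apart, was counted at 1579, 1612, 1377, 632 and 1165 in the controls and 4815, 3207, 3176 and 3819 after ECL. Every ECL value was above every control (log2 fold change 1.56 ± 0.23, edgeR quasi-likelihood test, Benjamini-Hochberg adjusted p = 0.000496). The vesicle SNARE Vamp2 (0.33 ± 0.28, edgeR adjusted p = 0.401) and the scaffold Bsn (-0.35 ± 0.16, edgeR adjusted p = 0.116) were not called.

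Ion channel genes were called about as often as genes in general. Of 21 sodium, calcium and HCN channel genes, 4 fell (19%) and 2 rose (9.52%). Of 33 potassium channel genes, 6 fell (18.2%) and 2 rose (6.06%), against 12.4% lower and 15.1% higher over all genes tested. Within the auxiliary β subunits of calcium channels the directions were opposite. Cacnb1 was counted at 99.5, 149, 179, 85.2 and 73.0 in the controls and 218, 311, 452 and 373 after ECL and rose without overlap (log2 fold change 1.53 ± 0.30, edgeR quasi-likelihood test, Benjamini-Hochberg adjusted p = 0.00267). Cacnb2 was counted at 958, 766, 1287, 1255 and 872 in the controls and 498, 646, 649 and 522 after ECL and fell without overlap (log2 fold change -0.83 ± 0.19, edgeR quasi-likelihood test, Benjamini-Hochberg adjusted p = 0.00564). Among potassium channels, Kcna2, which shortens action potentials along axons, fell (log2 fold change -0.75 ± 0.16), as did the sodium-activated channel Kcnt2 (-0.94 ± 0.20). The channel-interacting protein Kcnip3 rose (0.80 ± 0.20).

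Genes assigned to homeostatic synaptic plasticity and retinoic acid signalling numbered 21 tested. Of these 5 fell (23.8%) and 2 rose (9.52%), against 12.4% and 15.1% of all genes tested. The median was -0.17, and 0.03 with factors over all symbols. Cdk5, a neuronal kinase that acts in synaptic scaling (chr5:24418241-24423530), was counted at 657, 1020.4, 717, 352 and 507 in the controls and 2254, 1417, 1959 and 1599 after ECL. All ECL cultures exceeded all controls (log2 fold change 1.47 ± 0.25, edgeR quasi-likelihood test, Benjamini-Hochberg adjusted p = 0.00106). Igf1r, the receptor for insulin-like growth factor, fell (-0.59 ± 0.13, edgeR quasi-likelihood test, Benjamini-Hochberg adjusted p = 0.00482), and this call did not hold with the length and GC offset (adjusted p = 0.0588).

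The few markers of principal neurons that were called were lower after ECL. Of 11 CA1 markers, 2 fell (18.2%, against 12.4% of all genes tested) and 0 rose, with a median of -0.05. The called members were Ccn3 (log2 fold change -1.01 ± 0.24) and Crym (-0.70 ± 0.21), a thyroid hormone-binding protein whose call did not hold without ECL culture 2, ECL culture 4 or control 5 (edgeR with Benjamini-Hochberg adjustment, adjusted p = 0.0749, 0.0783 and 0.0527). Fibcd1, another CA1 marker, had -0.25 ± 0.21 and was not called (edgeR adjusted p = 0.403). Of 3 CA3 markers tested 1 fell. The summed count of all 8 CA3 markers found did not overlap, at 6982 to 8739 in the controls and 4481 to 5590 after ECL. The members did not move together. The 3 tested ranged from a log2 fold change of -0.87 to 0.66. In 0 of the 5 under the count minimum was every ECL culture below every control. Of 6 markers of the subiculum and entorhinal cortex tested 2 fell and 0 had a log2 fold change above 0. The sum over all 11 listed was 9755 to 13321 in the controls and 8360 to 9776 after ECL. Of 7 dentate granule cell markers 1 fell. Of 15 interneuron markers and neuropeptides 2 rose and 2 fell (13.3% each), against 15.1% and 12.4% of all genes tested. A log2 fold change above 0 was found for 8 of the 15, and the median was 0.08. The sum over all 18 listed was 44584 to 67819 in the controls and 51364 to 89351 after ECL. Of the 2 that fell, 1 is given here. Slc32a1, the vesicular transporter for GABA, was counted at 245, 425, 338, 237 and 231 in the controls and 81.8, 101, 182 and 181 after ECL, without overlap (log2 fold change -1.12 ± 0.30, edgeR quasi-likelihood test, Benjamini-Hochberg adjusted p = 0.0149), though the call did not hold without ECL culture 1 (adjusted p = 0.0503) or ECL culture 2 (0.0527). Chgb, a secretory granule protein, was the called CA3 marker and fell without overlap (-0.87 ± 0.14, edgeR quasi-likelihood test, Benjamini-Hochberg adjusted p = 0.000741).

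Many microglial genes rose. Of 31 tested genes of microglial activation, 16 rose and 0 fell, against 15.1% and 12.4% of all genes, and the median was 0.51. Their summed count was 120734 to 183893 in the controls and 200032 to 234643 after ECL. Tyrobp, the signalling adaptor of Trem2 (chr7:30413760-30417585), was counted at 665, 819, 685, 439 and 321 in the controls and 1975, 5279, 2222 and 4610.3 after ECL. The lowest ECL value was well above the highest control (log2 fold change 2.59 ± 0.32, edgeR quasi-likelihood test, Benjamini-Hochberg adjusted p = 0.000152). Fcgr3, a receptor for the constant part of IgG (chr1:171051174-171064935), was counted at 801, 1009, 799, 459 and 555 in the controls and 4712, 4017, 2402 and 3228 after ECL, again with a wide gap between the groups (log2 fold change 2.31 ± 0.24, edgeR quasi-likelihood test, Benjamini-Hochberg adjusted p = 6.75e-05).

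Trem2 itself, the lipid receptor of phagocytic microglia, was counted at 1058, 1113, 863, 804 and 777 in the controls and 1529.8, 1502, 1820.4 and 1654 after ECL. The rise was smaller but without overlap (log2 fold change 0.82 ± 0.15, edgeR quasi-likelihood test, Benjamini-Hochberg adjusted p = 0.00177). The cathepsin inhibitor Cst7 (1.18 ± 0.26) and the lysosomal membrane protein Cd68 (1.09 ± 0.26) rose as well, though Cd68 was not called with the length and GC offset (edgeR adjusted p = 0.0908). Apoe, the main lipoprotein of the brain, was not called (0.43 ± 0.18, edgeR quasi-likelihood test, Benjamini-Hochberg adjusted p = 0.095). Spp1 (osteopontin) was counted at 26449, 4435, 2997, 3567 and 2712 in the controls and 13944, 13132, 6397 and 11497 after ECL, with control 1 above every other library. Its log2 fold change of 0.49 ± 0.58 was not called (edgeR adjusted p = 0.563). Without control 1, Spp1 was called at a log2 fold change of 1.71 (edgeR adjusted p = 0.00076).

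Homeostatic microglial genes also included more rises than falls, with 6 of 20 higher (30%), 1 lower (5%) and a median of 0.35. Over all genes tested 15.1% were higher and 12.4% lower. The summed count of the list overlapped, at 48812 to 59200.5 in the controls and 51609.5 to 60861 after ECL. Olfml3 (0.99 ± 0.17) and Aif1 (0.91 ± 0.20), which encodes Iba1, rose without overlap, and Aif1 was not called with the length and GC offset (edgeR adjusted p = 0.0688). The receptors Cx3cr1 (0.28 ± 0.17), Csf1r (0.39 ± 0.18) and P2ry12 (0.59 ± 0.26) were not called.

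Of 17 tested complement genes, 4 rose (23.5%, against 15.1% of all genes tested) and 0 fell. Of these 4, 3 encode the chains of C1q, the recognition molecule that tags synapses and debris. C1qa (chr4:136895917-136898803) was counted at 437, 688, 582, 75.7 and 136 in the controls and 2032, 2900.1, 3428 and 3637 after ECL. Controls 4 and 5 were the lowest libraries, and every ECL culture was above every control (log2 fold change 2.96 ± 0.48, edgeR quasi-likelihood test, Benjamini-Hochberg adjusted p = 0.000773). C1qb was counted at 2898, 3116, 2781, 2369 and 2733 in the controls and 7022, 8503, 7096 and 9491 after ECL and varied little within groups (log2 fold change 1.53 ± 0.14, edgeR quasi-likelihood test, Benjamini-Hochberg adjusted p = 2.43e-05). C1qc was counted at 2188, 2390.4, 2072, 2032 and 1985 in the controls and 4002, 4479, 4281 and 5039 after ECL (log2 fold change 1.06 ± 0.13, edgeR quasi-likelihood test, Benjamini-Hochberg adjusted p = 0.000124). With the length and GC offset the values were 0.97 for C1qb and 0.64 for C1qc, still called. C3, the component on which all complement routes converge, was not called (log2 fold change 0.16 ± 0.18, edgeR adjusted p = 0.537).

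Cytokines and chemokines gave 3 rises and 0 falls among 17 tested. The share of rises, 17.6%, was near the 15.1% of all genes tested, of which 12.4% fell. Ccl5, a chemokine for T cells and monocytes, was counted at 109, 117, 44.1, 43.8 and 105 in the controls and 206, 520.1, 248 and 608 after ECL and rose without overlap (log2 fold change 2.23 ± 0.39, edgeR quasi-likelihood test, Benjamini-Hochberg adjusted p = 0.00131). Ccl2, which attracts monocytes, was not called and was variable, with 1000.1, 633, 491, 364 and 434 in the controls and 536, 1725, 309 and 1059 after ECL. For antigen presentation and interferon-stimulated genes, 10 of 27 rose (37%) and 0 fell (median 0.62). B2m, the light chain of MHC class I, was counted at 7789, 5880.4, 5175, 9166 and 6315 in the controls and 18190.2, 37702, 11424 and 25654 after ECL (log2 fold change 1.76 ± 0.28, edgeR quasi-likelihood test, Benjamini-Hochberg adjusted p = 0.000714). Its partner heavy chain H2-K1 had a log2 fold change of -0.19 ± 0.16 and was not called (edgeR adjusted p = 0.392). The interferon-induced membrane proteins Ifitm3 (1.25 ± 0.19) and Ifitm2 (1.13 ± 0.16) rose without overlap, at 0.75 and 0.59 with the offset. The exons of Ifitm2 overlap another gene over 40.9% of their bases.

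Lysosomal hydrolases rose in 16 of 34 cases (47.1%) and fell in 2 (5.88%), against 15.1% and 12.4% of all genes tested (median 0.43). Their sum was 105560 to 121373 in the controls and 146245 to 172191 after ECL. Ctsb, a cysteine protease, was counted at 17227, 15934, 12868, 10653 and 12787 in the controls and 36338, 36946, 25649.9 and 37645 after ECL (log2 fold change 1.30 ± 0.18, edgeR quasi-likelihood test, Benjamini-Hochberg adjusted p = 0.000279). Ctsa, a serine carboxypeptidase, was higher too (1.17 ± 0.19). In contrast, Hexa, a lysosomal hexosaminidase subunit, was counted at 2333, 1933, 2491, 2813 and 2153 in the controls and 981, 830.0, 1691 and 1207 after ECL and fell without overlap (-0.99 ± 0.20, edgeR quasi-likelihood test, Benjamini-Hochberg adjusted p = 0.00272). Psap, the precursor of the saposins, was the other member that fell (-0.84 ± 0.19). Of 19 genes tested for the V-ATPase, the proton pump that acidifies lysosomes and synaptic vesicles, 9 were higher (47.4%) and 0 lower. Pseudogenes of Atp6v0c were not left out of this list, so not every member is a subunit. Atp6v0c, the proteolipid ring subunit of the pump, was counted at 92.2, 105, 38.2, 44.9 and 75.9 in the controls and 905, 815, 525 and 1058 after ECL. Every ECL culture was far above every control, the largest rise among called protein-coding genes of largely unique sequence (log2 fold change 3.52 ± 0.31, edgeR quasi-likelihood test, Benjamini-Hochberg adjusted p = 2.09e-05). Its pseudogene Atp6v0c-ps2, of which 27.3% of the 100-base stretches are unique in the annotated transcripts, rose in parallel (3.16 ± 0.28), so reads may be divided between both. The catalytic subunit Atp6v1a was not called (-0.30 ± 0.15).

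**Figure D3:**
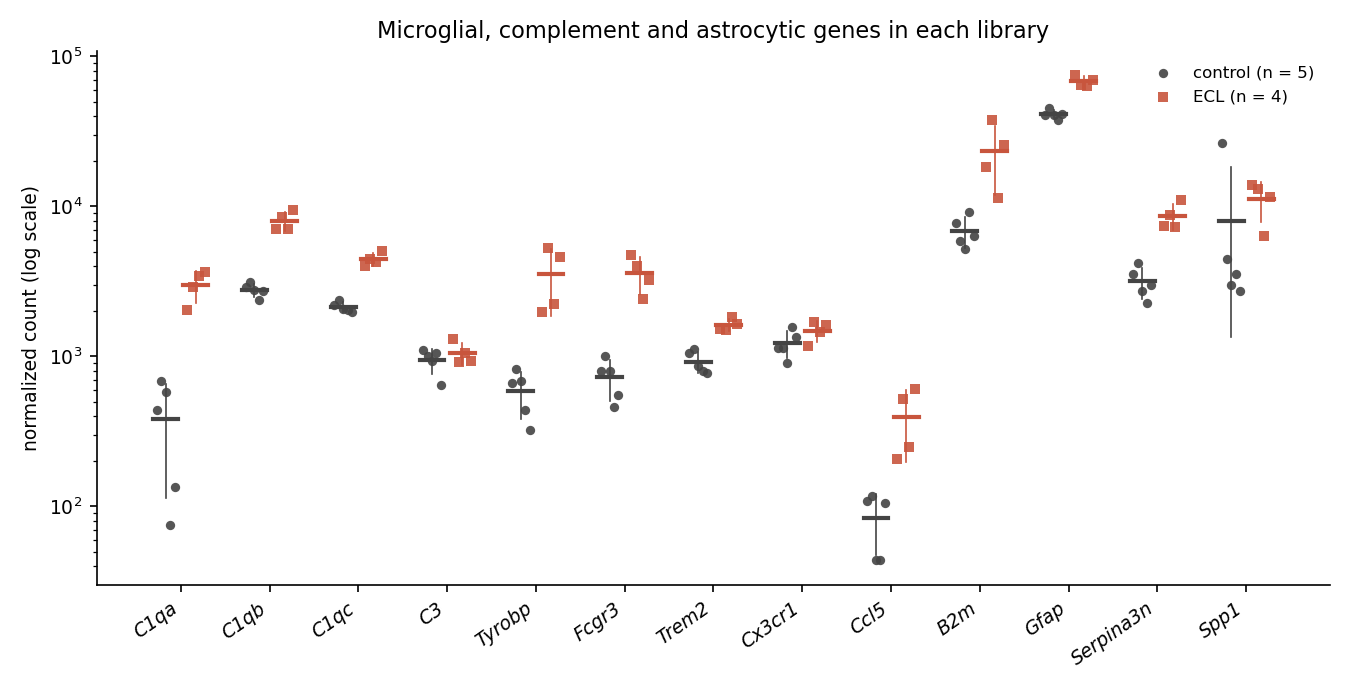
Normalised read counts (y axis, log scale) of 13 microglial, complement, immune and astrocytic genes in each library, with controls as grey circles (n = 5), ECL cultures as red squares (n = 4), bars for group means and lines for ± 1 SD. The groups are separated for the 3 C1q chains, Tyrobp, Fcgr3, Trem2, Ccl5, B2m, Gfap and Serpina3n, and overlap for C3, Cx3cr1 and Spp1. For Spp1 in the controls the SD exceeds the mean, so the lower part of the line is cut short on the log scale.

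Reactive astrocyte genes rose in 7 of 23 cases (30.4%) and fell in 1 (4.35%), against 15.1% and 12.4% of all genes tested (median 0.29). Gfap, the intermediate filament of astrocytes (chr11:102887336-102900912), was counted at 40739, 45089, 40747, 37885 and 41359.7 in the controls and 75188, 64559, 63221 and 69422 after ECL. The spread within groups was small, and the log2 fold change was 0.73 ± 0.14 (edgeR quasi-likelihood test, Benjamini-Hochberg adjusted p = 0.00206). Serpina3n, a protease inhibitor of reactive astrocytes, was counted at 3562, 4218, 2739, 2277 and 3010.3 in the controls and 7444, 8791, 7335 and 10958 after ECL (log2 fold change 1.45 ± 0.19, edgeR quasi-likelihood test, Benjamini-Hochberg adjusted p = 0.000205). Timp1, an inhibitor of metalloproteinases, rose by 1.83 ± 0.33, while Synm, another intermediate filament protein, fell (-0.78 ± 0.17).

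Markers of astrocyte identity did not move one way, with 5 of 20 higher (25%) and 3 lower (15%), against 15.1% and 12.4% of all genes tested. Atp1b2, a sodium pump subunit, was counted at 1090.0, 1270.3, 870.0, 724 and 1397 in the controls and 1638, 4301, 3300.2 and 5149 after ECL (log2 fold change 1.75 ± 0.28, edgeR quasi-likelihood test, Benjamini-Hochberg adjusted p = 0.000714). The glycolytic enzyme Aldoc was counted at 14603, 16409.8, 12889, 10867 and 14772 in the controls and 57327, 33372, 22383 and 26257 after ECL and rose (1.32 ± 0.24, edgeR quasi-likelihood test, Benjamini-Hochberg adjusted p = 0.00148). Sox9, the transcription factor of astrocyte fate, was counted at 12635, 11689.7, 12843, 21493 and 18494 in the controls and 6622, 7963, 7695 and 7791 after ECL and fell without overlap (-1.04 ± 0.19, edgeR quasi-likelihood test, Benjamini-Hochberg adjusted p = 0.00167). Glutamine synthetase, Glul, fell (-0.71 ± 0.18), and the glutamate transporters Slc1a2 (-0.39 ± 0.15) and Slc1a3 (-0.42 ± 0.23) were not called.

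Of 21 oligodendrocyte and myelin genes, 5 rose (23.8%) and 1 fell (4.76%), against 15.1% and 12.4% of all genes tested (median 0.30). Opalin, a myelin membrane protein, was counted at 1113, 1173, 963, 679 and 893 in the controls and 2336, 3192, 2452 and 2288 after ECL (log2 fold change 1.41 ± 0.17, edgeR quasi-likelihood test, Benjamini-Hochberg adjusted p = 0.000152). Mog, on the outer face of myelin, was counted at 1227, 1709, 1230.1, 1061 and 1238 in the controls and 4165, 3575, 2161 and 3031 after ECL (log2 fold change 1.32 ± 0.19, edgeR quasi-likelihood test, Benjamini-Hochberg adjusted p = 0.000393). Mbp had 0.81 ± 0.24, a call (edgeR with Benjamini-Hochberg adjustment, adjusted p = 0.0214) that did not hold without ECL culture 2 (0.0633), ECL culture 4 (0.0641) or control 5 (0.0587).

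Of 36 tested genes of axon growth 9 fell (25%) and 2 rose (5.56%), with a median of -0.24. Of 43 genes of axon guidance 7 fell (16.3%) and 1 rose (2.33%), against 12.4% lower and 15.1% higher over all genes tested. Sprr1a, a gene known from regenerating peripheral neurons, was the 1 listed axon growth gene under the count minimum. It is named after its values were seen. It was counted at 4.86, 18.3, 8.82, 5.91 and 5.84 in the controls and 30.6, 428, 89.9 and 283 after ECL, so that every ECL culture was above every control, without a test. Ncam1, the neural cell adhesion molecule, was counted at 9489, 7894, 9107, 15548 and 12329 in the controls and 4057, 5524, 5547 and 5589.8 after ECL and fell without overlap (log2 fold change -1.07 ± 0.20, edgeR quasi-likelihood test, Benjamini-Hochberg adjusted p = 0.00177). L1cam, an adhesion molecule of the same superfamily, was counted at 316, 220.1, 288, 206 and 239 in the controls and 472, 519, 479.7 and 477 after ECL and rose without overlap (0.94 ± 0.19, edgeR quasi-likelihood test, Benjamini-Hochberg adjusted p = 0.00284). Rtn4, which encodes Nogo, fell (-0.67 ± 0.16), as did the guidance receptor Neo1 (-0.62 ± 0.13). The neurofilament gene Nefm also fell (-0.72 ± 0.15).

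Of 56 genes of mitosis and DNA replication, 26 reached the count minimum. Of these 4 rose (15.4%) and 1 fell (3.85%), against 15.1% and 12.4% of all genes tested. Ccnd1, which drives entry into the cell cycle, was counted at 364, 360.0, 572, 277 and 289 in the controls and 616, 669.8, 842 and 727 after ECL (log2 fold change 0.94 ± 0.22, edgeR quasi-likelihood test, Benjamini-Hochberg adjusted p = 0.0066). The kinetochore genes Cenpa (1.31 ± 0.32) and Spc25 (0.94 ± 0.23) rose without overlap. Cdk1, the kinase that drives mitosis, had the largest change of the members tested. It was counted at 47.3, 68.8, 153, 66.2 and 2.92 in the controls and 315, 272, 131 and 457 after ECL, with overlap between the groups (log2 fold change 2.12 ± 0.58, edgeR quasi-likelihood test, Benjamini-Hochberg adjusted p = 0.0151), and without ECL culture 1 or ECL culture 4 it did not reach the count minimum. Of the 30 members under the count minimum, which were not tested, 23 had a higher mean after ECL. In 5 of the 30 every ECL culture was above every control, and in 0 below, against 13% and 11.8% of the genes tested. Those shares are from genes above the count minimum. No share was computed over all genes under it, for non-overlap or for a higher mean, so these counts are not read as a rise. Ccnb2, a mitotic cyclin, was one of the 5, at 13.4, 73.4, 30.9, 80.4 and 56.9 in the controls and 220.3, 226, 146 and 310.0 after ECL. Cdk1 and Ccnb2 are named after their values were seen.

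Mitochondrial ribosomal proteins, which translate the mitochondrial genome, were the list with the largest number of rises. Of 75 tested, 40 rose (53.3%) and 2 fell (2.67%), against 15.1% and 12.4% of all genes tested, with a median of 0.55. Their sum was 118224 to 129254 in the controls and 144026 to 180673 after ECL. Mrpl51 was counted at 1459, 1815, 1706, 1438 and 1431 in the controls and 3381, 4801, 3261 and 3644 after ECL (log2 fold change 1.26 ± 0.15, edgeR quasi-likelihood test, Benjamini-Hochberg adjusted p = 0.000124). Mrps12 was counted at 903, 1032, 908, 427 and 596 in the controls and 2912, 1548, 2309 and 1741 after ECL (log2 fold change 1.46 ± 0.25, edgeR quasi-likelihood test, Benjamini-Hochberg adjusted p = 0.00113). Mrpl42 was a clear exception, with a log2 fold change of -0.99 ± 0.21 without overlap. With the length and GC offset 34 of the 75 rose and 7 fell, and the median was 0.41.

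Cytosolic ribosomal proteins were called about as often as genes in general. Of 77 tested, 14 rose (18.2%) and 7 fell (9.09%), against 15.1% and 12.4% of all genes tested, with a median of 0.19. The median was -0.13 with the length and GC offset, under which 10 rose and 21 fell. Rpl32 was counted at 4548, 5702, 5186, 3928 and 3927 in the controls and 9543, 21405, 11640.4 and 16830.2 after ECL (log2 fold change 1.67 ± 0.22, edgeR quasi-likelihood test, Benjamini-Hochberg adjusted p = 0.000221), whereas Rpl37 was counted at 2497, 2408, 2528, 2331 and 2596 in the controls and 1518, 1264, 1842 and 1363 after ECL and fell (-0.72 ± 0.14, edgeR quasi-likelihood test, Benjamini-Hochberg adjusted p = 0.00232). Ribosomal protein genes have many processed copies in the genome, so their counts may be divided with those copies.

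The respiratory chain was split in the same way. Of 45 complex I genes, 15 rose (33.3%) and 5 fell (11.1%), with a median of 0.32. Of 46 nuclear genes of the other complexes, 14 rose (30.4%) and 6 fell (13%), with a median of 0.25. Over all genes tested 15.1% rose and 12.4% fell. With the length and GC offset the medians of these 2 lists were 0.04 and -0.04. Ndufs8, an iron-sulphur subunit of complex I, was counted at 2394, 2586, 2099, 1481 and 1968 in the controls and 6435, 4644, 4804 and 4389.7 after ECL and rose (log2 fold change 1.27 ± 0.17, edgeR quasi-likelihood test, Benjamini-Hochberg adjusted p = 0.000292). Ndufc1, a small accessory subunit, was counted at 18469.8, 21866, 21573, 23715 and 18917 in the controls and 11636, 11874, 11215 and 11006 after ECL and fell (-0.87 ± 0.14, edgeR quasi-likelihood test, Benjamini-Hochberg adjusted p = 0.000605). In complex IV, Cox5a was counted at 1813, 2181, 1874, 1169 and 1584 in the controls and 5266, 7989, 4835 and 6033 after ECL and rose (1.81 ± 0.19, edgeR quasi-likelihood test, Benjamini-Hochberg adjusted p = 7.36e-05), while Cox7c fell (-0.99 ± 0.16). The isoforms Cox6b2 and Cox4i2, low in the controls, rose by 2.68 ± 0.41 and 2.12 ± 0.27. Atp5k, a subunit of ATP synthase, was counted at 10768, 14609, 9259, 11451 and 8552 in the controls and 4746, 3306, 4553 and 3894 after ECL and fell (-1.41 ± 0.18, edgeR quasi-likelihood test, Benjamini-Hochberg adjusted p = 0.000202). Both directions occurred among subunits of 1 complex, and the named subunits did not overlap between groups.

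Of the 13 mitochondrially encoded genes tested, 2 rose (15.4%) and 3 fell (23.1%), against 15.1% and 12.4% of all genes tested. The median was 0.02, and 8 of the 13 had a log2 fold change above 0. The ribosomal RNAs of the mitochondrion were the most abundant of them. mt-Rnr1 was counted at 369148, 398646, 354171, 572995 and 418725 in the controls and 96005, 158813, 156051 and 149682 after ECL (log2 fold change -1.59 ± 0.22, edgeR quasi-likelihood test, Benjamini-Hochberg adjusted p = 0.000288). mt-Rnr2 was counted at 701602, 723211, 642249, 907564 and 698523 in the controls and 305377, 391892, 358085 and 350567 after ECL (-1.06 ± 0.18, edgeR quasi-likelihood test, Benjamini-Hochberg adjusted p = 0.00118). In both cases all ECL cultures were below all controls. The summed count of the list, which includes both, was 1280340 to 1982490 in the controls and 896926 to 1225990 after ECL. mt-Cytb, which encodes cytochrome b, was counted at 35993, 34958, 28990.1, 39115 and 39606 in the controls and 128037, 146095, 57069 and 100892 after ECL and rose (1.60 ± 0.23, edgeR quasi-likelihood test, Benjamini-Hochberg adjusted p = 0.000385). mt-Co1 was not called (0.52 ± 0.22, edgeR adjusted p = 0.0937).

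Glutathione and antioxidant enzymes rose in 27 of 52 cases (51.9%) and fell in 3 (5.77%), against 15.1% and 12.4% of all genes tested (median 0.52). The sum was 116226 to 134900 in the controls and 173107 to 225173 after ECL. Gpx3, an extracellular glutathione peroxidase, was counted at 3255, 4682, 3179, 1994 and 4213 in the controls and 8989.6, 7996, 10895 and 12975 after ECL (log2 fold change 1.56 ± 0.22, edgeR quasi-likelihood test, Benjamini-Hochberg adjusted p = 0.000359). Gstm1, a glutathione transferase, was counted at 4425, 4695, 3392, 3963 and 6406 in the controls and 14859, 13043, 8352 and 12173 after ECL (1.40 ± 0.20, edgeR quasi-likelihood test, Benjamini-Hochberg adjusted p = 0.000359). Gpx4, which reduces lipid peroxides, was counted at 813, 929.8, 961, 337 and 496 in the controls and 2640.2, 1925, 2465 and 2357 after ECL (1.73 ± 0.26, edgeR quasi-likelihood test, Benjamini-Hochberg adjusted p = 0.000489). These 3 enzymes showed no overlap. Gpx1, the most abundant cytosolic glutathione peroxidase, rose by 0.81 ± 0.14, or 0.31 with the length and GC offset.

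Against this direction, Sod1, the cytosolic superoxide dismutase (chr16:90220754-90226329), was counted at 7945, 6831, 7123, 13805 and 7421 in the controls and 3461, 3399, 4422 and 3499.6 after ECL. It fell without overlap (log2 fold change -1.22 ± 0.21, edgeR quasi-likelihood test, Benjamini-Hochberg adjusted p = 0.00103). Gsr, which regenerates reduced glutathione, fell (-0.67 ± 0.16), as did Keap1 (-0.78 ± 0.19), the inhibitor of the antioxidant transcription factor Nrf2. The list thus had peroxidases and transferases among its rises and the dismutase, the reductase and Keap1 as its 3 falls.

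Genes listed for the handling of oxidised RNA and nucleotides, with some RNA-modifying enzymes among them, fell in 9 of 30 cases (30%) and rose in 2 (6.67%). Over all genes tested 12.4% fell and 15.1% rose. The median of the list was -0.08, and 0.10 with factors over all symbols. The summed count of the list was 63608 to 101297 in the controls and 56397 to 57868 after ECL. Pcbp1, which binds heavily oxidised RNA, was counted at 4677, 4114, 6092, 6955 and 6164 in the controls and 2044, 2611, 2663 and 2356 after ECL and fell (log2 fold change -1.21 ± 0.17, edgeR quasi-likelihood test, Benjamini-Hochberg adjusted p = 0.000346). Ybx1, a cold-shock protein that recognises oxidised bases, was counted at 5983, 5095, 5319, 10114 and 7045 in the controls and 3452, 3517, 4541 and 3829 after ECL and fell (-0.81 ± 0.20, edgeR quasi-likelihood test, Benjamini-Hochberg adjusted p = 0.00869). Hnrnpd, which encodes AUF1, fell (-0.81 ± 0.14). Alkbh5, an RNA demethylase that acts on methylated and not on oxidised bases, was counted at 2316, 1924, 1912, 3839 and 3851 in the controls and 588, 688, 1062 and 791 after ECL. It fell (-1.82 ± 0.26, edgeR quasi-likelihood test, Benjamini-Hochberg adjusted p = 0.000352). None of these 4 genes overlapped between groups.

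Metallothioneins, ferritin and other genes of metal handling rose in 7 of 14 cases (50%) and fell in 1 (7.14%), against 15.1% and 12.4% of all genes tested. Their median was the highest among lists of more than 10 tested members (0.65). With the length and GC offset it was 0.32, below the 0.41 of mitochondrial ribosomal proteins, and 5 members rose and 2 fell. Ftl1, the light chain of ferritin (chr7:45457944-45459884), was counted at 394, 588, 461, 263 and 305 in the controls and 2209, 2111, 1874 and 2300.4 after ECL (log2 fold change 2.40 ± 0.21, edgeR quasi-likelihood test, Benjamini-Hochberg adjusted p = 2.09e-05). Only 55.3% of its 100-base stretches are unique and 34.6% of its exon bases are shared, so its count is uncertain. Fth1, the heavy chain, was counted at 56908, 60998, 64294, 57095 and 52055 in the controls and 95167, 113222, 87888 and 117210 after ECL (0.83 ± 0.15, edgeR quasi-likelihood test, Benjamini-Hochberg adjusted p = 0.00174). Mt1, a zinc-binding metallothionein, was counted at 18801, 24235, 17268, 14981 and 16988 in the controls and 32456, 48405, 29109.9 and 45964 after ECL (1.08 ± 0.19, edgeR quasi-likelihood test, Benjamini-Hochberg adjusted p = 0.00134), and Mt3, the neural form, rose by 1.17 ± 0.18. With the length and GC offset Mt1 was at 0.60. Mt2, with much of its sequence shared with another gene, was not called (0.53 ± 0.30, edgeR adjusted p = 0.196).

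Genes of glycolysis and glucose transport rose in 10 of 28 cases (35.7%) and fell in 3 (10.7%), against 15.1% and 12.4% of all genes tested (median 0.25). Both subunits of the mitochondrial pyruvate carrier were higher without overlap, Mpc1 with 455, 389.8, 245, 462 and 453 in the controls and 1124, 1069, 584 and 802 after ECL (log2 fold change 1.16 ± 0.23, edgeR quasi-likelihood test, Benjamini-Hochberg adjusted p = 0.00259) and Mpc2 by 0.82 ± 0.15. Hk2, which commits glucose to glycolysis, fell (-0.72 ± 0.16, edgeR quasi-likelihood test, Benjamini-Hochberg adjusted p = 0.00518).

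Cholesterol genes were divided. Of 25 tested, 6 fell (24%) and 3 rose (12%), against 12.4% and 15.1% of all genes tested. Insig1, the sterol sensor that retains SREBP in the endoplasmic reticulum, was counted at 3575, 2380.1, 2972, 7922 and 6698 in the controls and 456, 656, 823 and 500.2 after ECL (log2 fold change -2.95 ± 0.35, edgeR quasi-likelihood test, Benjamini-Hochberg adjusted p = 0.000124). Controls 4 and 5 were the highest libraries. Without these controls the log2 fold change was -2.30, still called. Ebp, a sterol isomerase, rose (1.27 ± 0.25), as did Cyp46a1, which converts cholesterol to the form that leaves the brain (1.59 ± 0.31).

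Heat shock proteins and chaperones fell in 7 of 37 cases (18.9%) and rose in 5 (13.5%), near the 12.4% and 15.1% of all genes tested. Hspa2, a member of the Hsp70 family, was counted at 7579.9, 6611, 8774, 14911 and 10624 in the controls and 2698, 2829, 3011 and 2376 after ECL and fell (log2 fold change -1.83 ± 0.22, edgeR quasi-likelihood test, Benjamini-Hochberg adjusted p = 0.000124). Cryab, a small heat shock protein of glia, was counted at 2485, 3436, 2094, 2419.9 and 2858 in the controls and 7203, 6682, 3951 and 6499 after ECL and rose (1.19 ± 0.19, edgeR quasi-likelihood test, Benjamini-Hochberg adjusted p = 0.000669). Of 29 genes of the unfolded protein and integrated stress responses 5 rose (17.2%) and 1 fell (3.45%), and the rises included Xbp1 (1.39 ± 0.23) and the asparagine synthetase Asns (0.83 ± 0.13), both higher without overlap. The proteasome had 13 of 44 genes higher (29.5%) and 3 lower (6.82%), with a median of 0.30. With the length and GC offset 10 were higher and 3 lower, and the median was 0.08. Psmb2, a catalytic β subunit, was counted at 3664, 3809.8, 3437, 2468 and 3280.3 in the controls and 10450.4, 9943, 7659 and 8789.8 after ECL (1.47 ± 0.15, edgeR quasi-likelihood test, Benjamini-Hochberg adjusted p = 7.36e-05), and Psmb3 rose by 1.41 ± 0.15.

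Circadian clock genes fell in 6 of 20 cases (30%) and rose in 1 (5%), against 12.4% and 15.1% of all genes tested (median -0.27). Bhlhe41, a repressor of the clock, was counted at 9990.5, 8154, 6239, 19042 and 15264 in the controls and 1888, 3036, 2551 and 2638 after ECL (log2 fold change -2.22 ± 0.29, edgeR quasi-likelihood test, Benjamini-Hochberg adjusted p = 0.000234). Per3, a period gene, was counted at 2435, 1536, 1418, 4075 and 3820.5 in the controls and 1273, 859, 832 and 870.1 after ECL (-1.47 ± 0.30, edgeR quasi-likelihood test, Benjamini-Hochberg adjusted p = 0.00315). Both were highest in controls 4 and 5, and without these controls the log2 fold changes were -1.70 and -0.92.

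Of 17 abundant long non-coding RNAs, 7 fell (41.2%, against 12.4% of all genes tested) and 0 rose. Meg3, a maternally expressed neuronal transcript, was counted at 61159, 57493, 72181, 78269.6 and 68062 in the controls and 25709.6, 28157, 39594 and 31074 after ECL (log2 fold change -1.12 ± 0.17, edgeR quasi-likelihood test, Benjamini-Hochberg adjusted p = 0.000575). Snhg11 (-1.05 ± 0.21) and Miat (-1.59 ± 0.22) also fell without overlap. Malat1, retained in nuclear speckles, was not called (0.22 ± 0.20, edgeR adjusted p = 0.437).

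**Figure D4:**
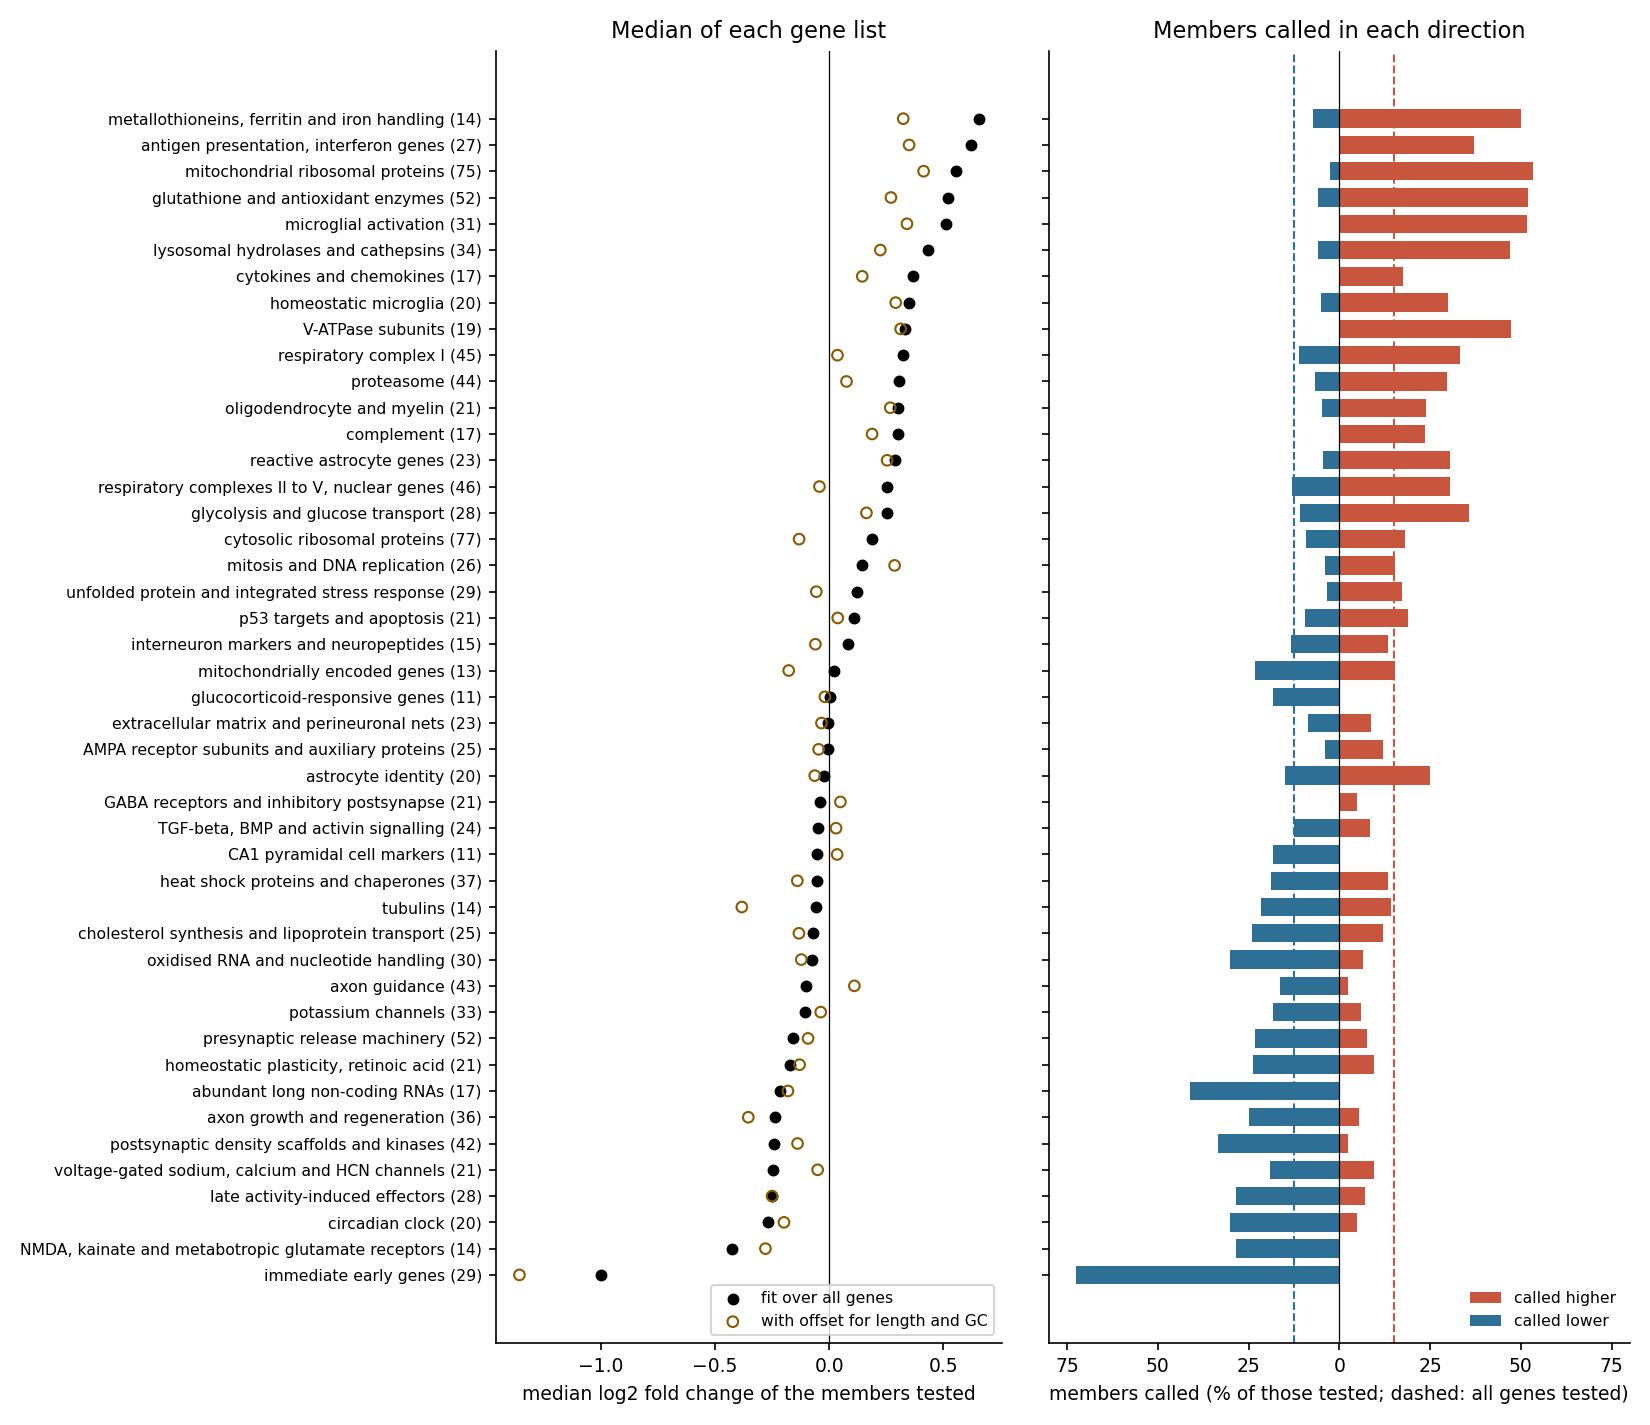
Left, median log2 fold change (x axis) of the members tested (number in parentheses) of each gene list with more than 10 of them, in the fit over all genes (filled circles) and with an offset for exon length and GC content (open circles). Right, percentage of members called higher (red) and lower (blue), with dashed lines for all genes tested (15.1% and 12.4%). Among the filled circles, immediate early genes lie farthest to the left at -1.0 and metallothionein and ferritin genes farthest to the right at 0.65.

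The largest single changes lay partly outside these lists. Besides the genes already given, Tmem37, a membrane protein related to calcium channel γ subunits, was counted at 121, 138, 123, 66.2 and 61.3 in the controls and 765, 561, 556 and 536 after ECL (log2 fold change 2.57 ± 0.27, edgeR quasi-likelihood test, Benjamini-Hochberg adjusted p = 6.9e-05). The small GTPase Rhoc was counted at 218, 295, 249.8, 79.2 and 165 in the controls and 936, 923, 974 and 1176 after ECL (2.31 ± 0.29, edgeR quasi-likelihood test, Benjamini-Hochberg adjusted p = 0.000152). S100a16, a calcium-binding protein, was counted at 1541, 2084, 1693, 695 and 1133 in the controls and 7694, 5273, 5468 and 6516 after ECL (2.13 ± 0.25, edgeR quasi-likelihood test, Benjamini-Hochberg adjusted p = 0.000124). Mef2d, a transcription factor of neurons and muscle, rose by 2.15 ± 0.25, and Slc25a1, the mitochondrial citrate carrier, by 2.30 ± 0.35. Of the 50 largest rises, 31 were protein-coding genes and 17 pseudogenes, whereas 43 of the 50 largest falls were protein-coding.

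Among the falls, Notch2, a receptor of the Notch pathway (chr3:98013527-98150361), was counted at 6963, 4803, 6496, 26408 and 15190.0 in the controls and 585, 843, 784 and 924 after ECL (log2 fold change -3.93 ± 0.46, edgeR quasi-likelihood test, Benjamini-Hochberg adjusted p = 0.000124). Pdcd4, an inhibitor of translation, was counted at 11067, 7778, 9232, 33476 and 20447 in the controls and 1816, 2064, 2056 and 1663 after ECL (-3.11 ± 0.38, edgeR quasi-likelihood test, Benjamini-Hochberg adjusted p = 0.000152). Skil, a corepressor of TGF-β signalling, was counted at 15463, 8047, 7154, 49372 and 29167 in the controls and 3615, 3522, 2258 and 3207 after ECL (-2.79 ± 0.49, edgeR quasi-likelihood test, Benjamini-Hochberg adjusted p = 0.00131). All 3 were highest in controls 4 and 5. Without these 2 libraries the log2 fold changes were -2.97 for Notch2, -2.31 for Pdcd4 and -1.71 for Skil, and all 3 were still called. Abhd2 (-3.82 ± 0.44), Crebl2 (-3.01 ± 0.39) and Ogdhl (-3.57 ± 0.44) were likewise highest in controls 4 and 5.

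The 4 predicted genes Gm10800, Gm10801, Gm21738 and Gm10722 were also among the largest falls. Gm10800 was counted at 86802, 24849, 143404, 153601 and 49815 in the controls and 5069, 4846, 6992 and 4571 after ECL (log2 fold change -4.09 ± 0.47, edgeR quasi-likelihood test, Benjamini-Hochberg adjusted p = 0.000107). The controls differed widely from each other, with control 2 lowest and controls 3 and 4 highest, and all ECL cultures were below all controls. The other members, from Gm21738 (-4.20 ± 0.45) and Gm10801 (-4.32 ± 0.46) to Gm10722 (-4.09 ± 0.46), had the controls in the same order. Of their 100-base stretches 80.3% to 100% occur once in the annotated transcripts, and copies elsewhere in the genome were not looked at.

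Changes also followed the exon length of the genes, meaning all bases covered by the exons of a gene over all its transcripts. Protein-coding genes were divided into 5 classes of like number by exon length in the GENCODE M21 annotation of GRCm38. In the class with the shortest exon length, 348 to 2750 bases, 35.7% of genes rose and 7.54% fell (median log2 fold change 0.37). In the class with the longest, 8386 to 123179 bases, 3.15% rose and 20.1% fell (median -0.21). The median exon length was 2756.5 bases for genes that rose, 6082 bases for genes that fell and 5211 bases for genes not called. With an offset for length and GC content 19.8% rose and 19.0% fell in the shortest class, and 9.58% rose and 10.4% fell in the longest. Under this offset 1594 genes were called higher and 1661 lower, and the immediate early genes (median -1.36), microglial activation genes (0.34), mitochondrial ribosomal proteins (0.41) and antioxidant enzymes (0.27) kept the sign of their medians.

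The kinds of genes differed as well. Of 432 pseudogenes tested, 41.0% rose and 7.87% fell, with a median of 0.43. Of 471 long non-coding or unconfirmed genes 6.37% rose and 15.5% fell. The part of fragment length or RNA quality in these patterns was not tested, since no value in the tables measures either directly.

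**Figure D5:**
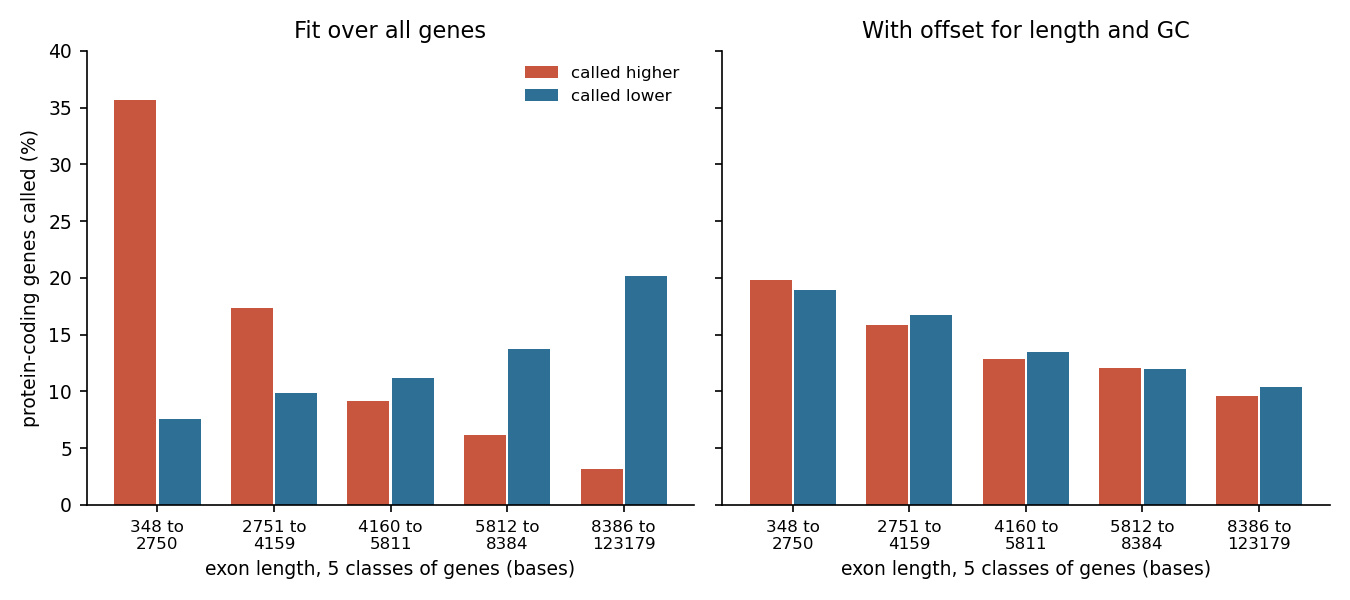
Percentage of protein-coding genes (y axis) called higher (red) and lower (blue) in each of 5 classes of exon length (x axis, in bases), for the fit over all genes (left) and for the fit with an offset for length and GC content (right). On the left the share called higher goes from 35.7% in the shortest class to 3.15% in the longest, and on the right from 19.8% to 9.58%.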

How the data were processed

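Per the labels and the authors' methods, polyadenylated RNA of single CA1 isolates was amplified with a low-input kit and sequenced on a NovaSeq6000. The authors trimmed reads with cutadapt 3.5, mapped them with STAR 2.7.8a to mm10 and counted them with featureCounts 2.0.1 on GENCODE genes without strand, so antisense and overlapping genes cannot be separated. The authors deposited raw counts, without normalization. From these counts, genes whose normalized counts averaged at least 150 over the 9 libraries were tested by the quasi-likelihood method of edgeR 4.0.16 under R 4.3.3 (estimateDisp, glmQLFit, glmQLFTest; TMM factors over the genes tested; two-sided; Benjamini-Hochberg adjustment over all genes tested; threshold 0.05). Standard errors were obtained by dividing the size of the log2 fold change by the root of the F statistic, and the biological coefficient of variation was 0.238. Even values made up 63.0% to 73.9% of the counts from 1 to 20, as would follow if both mates of read pairs were counted, and halved counts were tried.

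Lengths, biotypes, uniqueness and shared exons came from GENCODE M21 on GRCm38, which held 53292 of the 55291 symbols and gave length and GC content for 98.7% of the genes tested. Gene lists were written from gene names; the members and lists were chosen with earlier results of these data known, so they are described by counts and medians and not tested. Named genes are the anchor genes of the lists, up to 3 called members per list and direction with the smallest adjusted p, and the 12 largest rises and 12 largest falls among protein-coding genes with largely unique sequence and no overlap between groups; a few genes that met this rule are not reported here. Alternatives were DESeq2 1.42.0, other scalings and filters, a replicate block, a smooth correction of exon length and GC by mgcv 1.9.3 entered as an offset, a sex term, a stricter threshold, halved counts and leaving out each library; blocking on the column heading numbers and leaving out several controls were added after seeing the data. Summed counts of a list cover all its members found among the deposited gene symbols, also those under the count minimum. The code was tested on simulated data. The libraries of the other lesion were left out of every fit.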

Additional observations from a re-analysis of the deposited data

Results flagged for a closer look

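Among the genes named, 454 groups of 4 or 5 libraries were looked at, and in 32 (7.05%) 1 library lay apart from the others by Dixon's 95% criterion, which chance meets in about 1 of 20 groups. Control 4 was such a library for 8 genes, ECL culture 3 for 8, control 3 for 4 and control 5 for 3. ECL culture 1 was flagged 6 times, which includes its total count. That total was 46449900 counts, against 20210200 to 24105500 in the other ECL cultures.

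Of the activity genes, Fos was highest in control 5 at a normalised count of 12950.5, Dusp1 in control 5 at 2324 and Nptx2 in control 5 at 666. Arc was lowest in control 4 at 1167, and Nrn1, which encodes neuritin, was lowest in ECL culture 3 at 862. Of the synaptic and channel genes, Gria3 was highest in control 4 at 7547 and the lipase Abhd12 lowest in control 4 at 2363. Dlg4 was highest in control 3 at 1164. ECL culture 3 was highest for Gria1 at 10894, Camk2b at 7647, Erc1 at 1037 and the calcium channel Cacna1i at 442. The RNA-editing enzyme Adarb1 was lowest in ECL culture 2 at 804.

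Of the glial genes, Spp1 was highest in control 1 at 26449, Aif1 lowest in control 4 at 1441, Ctsb lowest in ECL culture 3 at 25650 and Tmem119 lowest in ECL culture 1 at 278. Synm was highest in control 4 at 1376, the water channel Aqp4 in control 4 at 5012 and Mog in control 2 at 1709. Of the axonal and mitotic genes, Ncam1 was lowest in ECL culture 1 at 4057, L1cam highest in ECL culture 2 at 519 and Cenpa lowest in control 3 at 58.8.

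Of the metabolic, stress and clock genes, mt-Rnr1 was lowest in ECL culture 1 at 96005, and Sod1 was highest in control 4 at 13805.0 and in ECL culture 3 at 4422.5. Atp6v0e, a V-ATPase subunit, was lowest in control 3 at 2764, the heat shock gene Hspa1b highest in ECL culture 3 at 154, Per3 highest in ECL culture 1 at 1273 and the clock factor Npas2 highest in control 4 at 1629. Miat was highest in control 3 at 3489 and Tmem37 in ECL culture 1 at 765. No cause of these values was tested.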

How the results depend on the processing

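Against 3139 called genes (1722 higher, 1417 lower), no filter on low counts gave 8034 (3453 higher, 4581 lower), a threshold of 0.01 gave 1495 (877 higher, 618 lower), and leaving out controls 1, 3 and 4 gave 1254 (709 higher, 545 lower). Fewer genes were lower with TMM factors over all symbols (695), a scaling that moved the median of all genes from -0.01 to 0.18, and more with the filterByExpr filter (2251). Leaving out 1 library gave 2094 (without ECL culture 4) to 3091 (without control 2) called genes, 1252 to 1681 higher and 842 to 1410 lower. DESeq2 called 3526. Of the called genes, 27 of 3087 with a length and GC value had the other sign with the length and GC offset. Gria2 went from -0.30 to 0.16 with this offset, and Spp1 from 0.49 to -0.014 without controls 4 and 5, neither called in either fit, and the cause was not tested.

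With the replicate number as a block 2678 genes were called, 1545 higher and 1133 lower. Libraries that share a number deviated together for number 3 only (correlations of -0.00195, -0.146, 0.419 and -0.141 for numbers 1 to 4). Between different numbers the highest correlation was 0.258. The numbers were not taken to pair the cultures. Of 198 named and called genes, 191 kept their call under the block, 179 of 198 with the length and GC offset, 182 with the sex term and 196 with DESeq2. Of the 198, 124 kept it in every one of the 23 alternatives in which they were tested. A few genes were under the count minimum in some alternatives. Of 57 lists, 29 kept the sign of their median in all alternatives. With 4 and 5 libraries the median standard error of a log2 fold change was 0.20, which limits how small a difference can be seen.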
